A study of Homo sapiens with 6 samples.

Results

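The PDZ and LIM domain genes are a family of 7 human genes: PDLIM1, PDLIM2, PDLIM3, PDLIM4, PDLIM5, PDLIM7 and LDB3. They were taken by symbol from a table of 18268 gene rows, and each matched 1 row. The family was chosen by the KO and vector control FPKM of PDLIM1, which was among the genes with the lowest fold changes, so the PDLIM1 difference is given as a description without a test. The other 6 members came in by family name. PDLIM2 has no row of its own, and its value is that of the row C8orf58;PDLIM2;AC037459, which joins it with neighbouring genes.

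Total RNA was sequenced from MIA PaCa-2, a long-established line of human pancreatic cancer cells that the labels call epithelial. The genotype LINC00901 KO, a knockout of a long non-coding RNA gene, had 3 libraries (KO 1 to 3), and the genotype Vector Control, titled LCV2, had 3 (vector control 1 to 3). All were grown in DMEM with fetal bovine and horse serum. The labels do not say whether the knockout is 1 clone or a pool, or whether the libraries came from separate cultures, so each p-value reflects the variation among these libraries alone, and that variation may be technical.

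PDZ and LIM domain proteins carry a PDZ domain at the amino end and LIM domains, zinc-binding protein interaction modules, at the carboxyl end. They dock on α-actinin, the protein that bundles actin filaments in stress fibres and in the Z-discs of muscle, and they bring kinases and other signalling proteins to these filaments. PDLIM1, PDLIM2, PDLIM3 and PDLIM4 have a single LIM domain and form the ALP group. PDLIM5, PDLIM7 and LDB3 have several and form the Enigma group.

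PDLIM1 lies on chromosome 10, on the minus strand in GENCODE 29 (GRCh38), with 5 annotated transcripts of which 1 is protein-coding (1452 nt, 7 exons). No annotated gene overlaps it on either strand, so its row is not shared with a partner. The 250 bases before its RefSeq start are shown next to those of PDLIM7, the member with the second highest level in the vector controls. Capitals mark the GC box GGGCGG on either strand, and neighbouring boxes can share bases.
PDLIM1, GRCh38.p14, chr10:95291004-95291253, minus strand: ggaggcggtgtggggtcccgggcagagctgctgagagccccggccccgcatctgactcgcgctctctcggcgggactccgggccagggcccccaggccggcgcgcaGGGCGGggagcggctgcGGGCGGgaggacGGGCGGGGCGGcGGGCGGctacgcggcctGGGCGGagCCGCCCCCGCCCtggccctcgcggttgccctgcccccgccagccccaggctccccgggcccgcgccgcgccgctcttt
PDLIM7, GRCh38.p14, chr5:177497605-177497854, minus strand: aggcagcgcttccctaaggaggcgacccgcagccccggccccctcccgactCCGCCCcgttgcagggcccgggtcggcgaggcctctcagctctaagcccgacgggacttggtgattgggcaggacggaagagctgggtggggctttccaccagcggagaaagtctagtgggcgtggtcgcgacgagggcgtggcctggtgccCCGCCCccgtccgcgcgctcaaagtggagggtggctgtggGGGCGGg

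The PDLIM1 window held 8 GC boxes and the PDLIM7 window 3. PDLIM4 had 5, PDLIM3 had 3, PDLIM5 had 2 and LDB3 had 0 in windows of the same length. Of 35116 promoter windows in the RefSeq table, 42.6% held at least 1. The PDLIM1 window was 82.8% G and C, higher than or equal to 99.0% of all windows, against a median of 58.0%. The AP-1 letters TGACTCA or TGAGTCA (4.20% of all windows), the E-box CACGTG (6.34%), the TEAD letters GGAATG (11.9%), the NF-kB consensus (5.21%) and the CArG box (1.16%), each sought on both strands, were not found in the PDLIM1 window. LDB3 had 1 AP-1 and 1 CArG match, and PDLIM7 had 1 NF-kB match. A match describes the letters, and its absence says nothing of a factor.

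Values are FPKM, fragments that the authors scaled to transcript length and library size, which summed to between 123107 and 134389 per library. FPKM does not give the depth. No row names LINC00901, so the knockout was not checked in these values and directions rest on the labels. Vector control 1 stood apart from the other controls: across 9624 tested genes it correlated at r = 0.904 and 0.906 with vector control 2 and 3, and at r = 0.932 with KO 3. KO 1 also stood apart, at r = 0.933 and 0.935 with KO 2 and 3, which correlated at 0.970, and at r = 0.920 and 0.921 with vector control 2 and 3. A gene that reached 1 FPKM in 3 or more libraries was tested with limma on log2(FPKM + 1), and a gene was called at an adjusted p below 0.05. At an unadjusted p below 0.05 there were 1685 genes, 17.5% of those tested. Adjusted, this called 130 genes, 1.35% of those tested, 49 higher and 81 lower in KO libraries. The division was 29 higher and 81 lower after median scaling and 31 higher and 99 lower after quantile normalization. The count was 1329 without vector control 1, 39 without vector control 2 or 3, 121 without KO 1, 29 without KO 2 and 25 without KO 3. The PDLIM1 log2 fold change was -2.92 without KO 1.

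The epithelial keratins KRT18 and KRT19 were present in all libraries, at 28.78 to 58 and 12.69 to 25.11 FPKM in KO libraries and at 70.41 to 79.42 and 17.46 to 39.34 FPKM in vector controls. KRT18 was lower in KO libraries without overlap, KRT19 overlapped, and neither was called (limma adjusted p = 0.147 and 0.324). KRT7 stood at 0.11 FPKM at most, and KRT8 had only a joined row. The epithelial adhesion genes EPCAM and CDH1 stood at 0.14 and 0.02 FPKM at most. The 5 epithelial genes with their own row summed to 42.9 to 83.15 FPKM in KO libraries and 96.99 to 117.73 FPKM in vector controls. Of 13 muscle and Z-disc markers, 11 had their own row, 0 reached 1 FPKM in any library and 4 (DES, ACTC1, MYH7 and TNNT2) were listed at 0 throughout. Their summed level was 0.67 to 1.57 FPKM in KO libraries and 0.21 to 0.88 FPKM in vector controls. Of 6 fibroblast genes, the collagen genes COL1A1, COL1A2 and COL3A1 reached 1 FPKM, DCN was listed at 0, and LUM and PDGFRB were at most 0.17 and 0.07 FPKM. COL1A2 stood at 51.58, 56.18 and 50.63 FPKM in KO 1 to 3, against 24.72, 35.84 and 34.3 FPKM in vector control 1 to 3, higher in KO libraries without overlap. COL3A1 stood at 41.24, 18.78 and 16.46 FPKM in KO libraries, against 43.1, 61.2 and 62.02 FPKM in vector controls, lower in KO libraries without overlap. Neither was called (limma adjusted p = 0.12 for COL1A2 and 0.16 for COL3A1). The fibroblast list, with these opposite differences, summed to 68.15 to 96.84 FPKM in KO libraries and 68.91 to 98.89 FPKM in vector controls. Of 6 leukocyte genes, PTPRC and CD3E were listed at 0 throughout, and the list summed to 1.2 to 1.83 FPKM in KO libraries and 1.29 to 4.54 FPKM in vector controls. The sum held different genes in each group. LYZ, the lysozyme gene, stood at 1.45, 1.83 and 1.2 FPKM in KO libraries and was listed at 0 in all vector controls. HLA-DRA, a class II gene, was listed at 0 in all KO libraries and stood at 1.29, 3.72 and 3.86 FPKM in vector controls. Both were called (limma adjusted p = 0.00799 for LYZ and 0.0294 for HLA-DRA). Each reached 1 FPKM only in the group in which it was higher. Each thus entered the test through that group, and its p carries that selection. Whether these marker differences bear on the family was not tested.

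PDLIM1, which encodes an α-actinin partner of stress fibres also known as CLP36 or elfin, was lower in every KO library than in any vector control. It stood at 2.85, 2.17 and 2.1 FPKM in KO 1, 2 and 3, against 22.56, 21.27 and 24.37 FPKM in vector control 1, 2 and 3. The groups were far apart and each was tight, and vector control 1 lay between the other controls. The mean was 2.37 ± 0.414 FPKM in KO libraries and 22.7 ± 1.56 FPKM in vector controls (SD, n = 3 each), a level 9.58-fold lower in KO libraries on the FPKM scale. On the log2(FPKM + 1) scale the fold change was -2.82 (SE 0.16), the 10th lowest of the tested genes. Its place was 27th with a pseudocount of 0.1, 18th with robust eBayes and array weights and 16th without vector control 1. Left out 1 at a time, the libraries gave -2.92 to -2.76, and without vector control 1 the value was -2.82. In bulk RNA, fewer cells with the transcript and less of it per cell cannot be told apart.

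**Figure D1:**
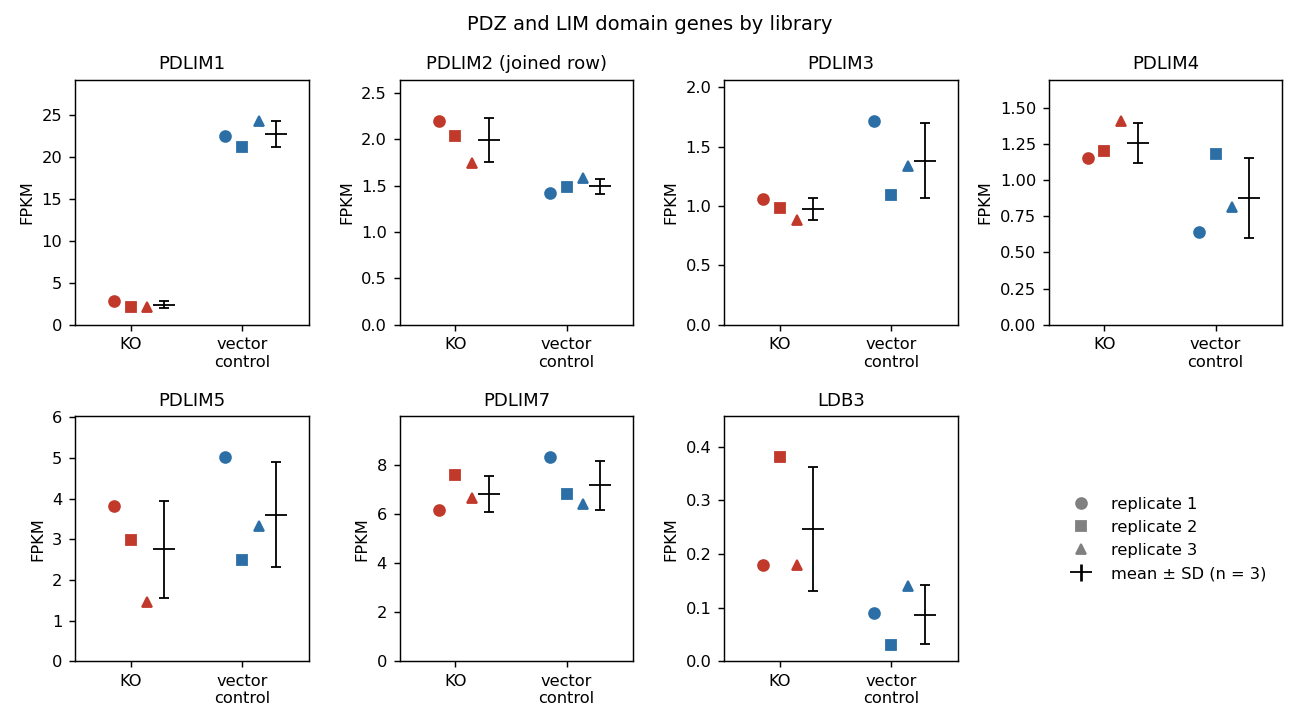
FPKM of the 7 members in each library, with KO on the left and vector control on the right of each panel, points for single libraries, and black bars for mean ± SD (n = 3 per group). The vertical scales start at 0 and differ between panels. PDLIM1 stands at 2.1 to 2.85 FPKM in KO libraries and at 21.27 to 24.37 FPKM in vector controls, while PDLIM4, PDLIM5 and PDLIM7 overlap between the groups.

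PDLIM1 stood at a different place among the expressed genes in each group. Counting from the most abundant row, it ranked between 7079 and 7880 in the KO libraries and between 955 and 1120 in the vector controls, among 18268 rows. Transcript remained in each KO library, at a level close to that of PDLIM5.

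The remaining ALP genes had low levels in both groups. The joined row with PDLIM2, which encodes a ubiquitin ligase for the NF-kB subunit p65 described in mouse cells, stood at 2.2, 2.03 and 1.74 FPKM in KO 1 to 3, against 1.42, 1.48 and 1.58 FPKM in vector control 1 to 3. The groups did not overlap, with the KO libraries higher. On the log2 scale the difference was 0.26 (SE 0.14, 95% interval -0.06 to 0.58) and did not pass (adjusted p = 0.367). How the authors divided the reads between the joined genes is not given in the sources used here, so the value is not PDLIM2 alone.

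PDLIM3, the actinin-associated LIM protein gene best known from skeletal muscle, stood at 1.06, 0.98 and 0.88 FPKM in KO 1 to 3, against 1.72, 1.09 and 1.34 FPKM in vector control 1 to 3. The KO libraries were lower without overlap, by as little as 0.03 FPKM between KO 1 and vector control 2. With limma the log2 fold change was -0.26 (SE 0.15, 95% interval -0.61 to 0.08; adjusted p = 0.392). PDLIM3 reached 1 FPKM in 1 KO library and in 3 vector controls, so it entered the test through the group in which it was higher.

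PDLIM4, also called RIL, encodes a stress fibre protein whose mouse form binds the tyrosine phosphatase PTPN13. It stood at 1.15, 1.2 and 1.41 FPKM in KO 1 to 3, against 0.64, 1.18 and 0.81 FPKM in vector control 1 to 3. Vector control 2 lay within the KO range, so the groups overlapped. PDLIM4 had a log2 fold change of 0.27 (SE 0.15, 95% interval -0.09 to 0.63; adjusted p = 0.396). PDLIM4 reached 1 FPKM in 3 KO libraries and in 1 vector control, and the prolyl hydroxylase gene P4HA2 overlaps it on the opposite strand. Without stated strand use, reads of such partners cannot be told apart.

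Enigma group members were measured at higher and at lower levels than these. PDLIM7, or Enigma, an adaptor for the RET and insulin receptors, stood at 6.14, 7.58 and 6.66 FPKM in KO 1 to 3, against 8.3, 6.79 and 6.41 FPKM in vector control 1 to 3. The groups overlapped, with the highest value in vector control 1. The log2 fold change was -0.06 (SE 0.16, 95% interval -0.45 to 0.32; adjusted p = 0.873), and without vector control 1 it was 0.03. AC145098.1 lies on the opposite strand of PDLIM7.

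PDLIM5, or Enigma homologue, which binds protein kinase C and holds the transcriptional inhibitor ID2 in the cytoplasm, varied most within the groups among the 6 tested members. It stood at 3.82, 2.99 and 1.46 FPKM in KO 1 to 3, against 5.02, 2.49 and 3.32 FPKM in vector control 1 to 3. The lowest value was in KO 3 and the highest in vector control 1, and the groups overlapped. Its coefficient of variation was 43.4% in KO libraries and 35.7% in vector controls, where PDLIM1 had 17.5% in KO libraries and 6.85% in vector controls. PDLIM5 had a log2 fold change of -0.31 (SE 0.30, 95% interval -1.03 to 0.40; adjusted p = 0.636), and -0.10 without vector control 1.

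LDB3, known as ZASP or Cypher, encodes a Z-disc protein of striated muscle. It lay below the filter, at 0.18, 0.38 and 0.18 FPKM in KO 1 to 3, against 0.09, 0.03 and 0.14 FPKM in vector control 1 to 3. The KO libraries were higher without overlap, at values near the last decimal that the table gives. Without a filter limma gave a log2 fold change of 0.20 (SE 0.07, adjusted p = 0.256). LDB3 and the Z-disc markers above were both near 0, while PDLIM3 was present at about 1 FPKM in each library.

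Of the 5 members other than PDLIM1 that passed the filter, 0 were called by limma, at an unadjusted p between 0.0956 and 0.701. Over all genes tested, 1.35% were called, 0.842% lower and 0.509% higher in KO libraries. PDLIM1 is left out of this count because its values chose the family. None of the 5 was called under any of the 16 other fits in which it was tested. Groups without overlap occurred in 23.8% of tested genes, 8.35% lower and 15.4% higher in KO libraries, and in PDLIM3 and the joined row among the 5.

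**Figure D2:**
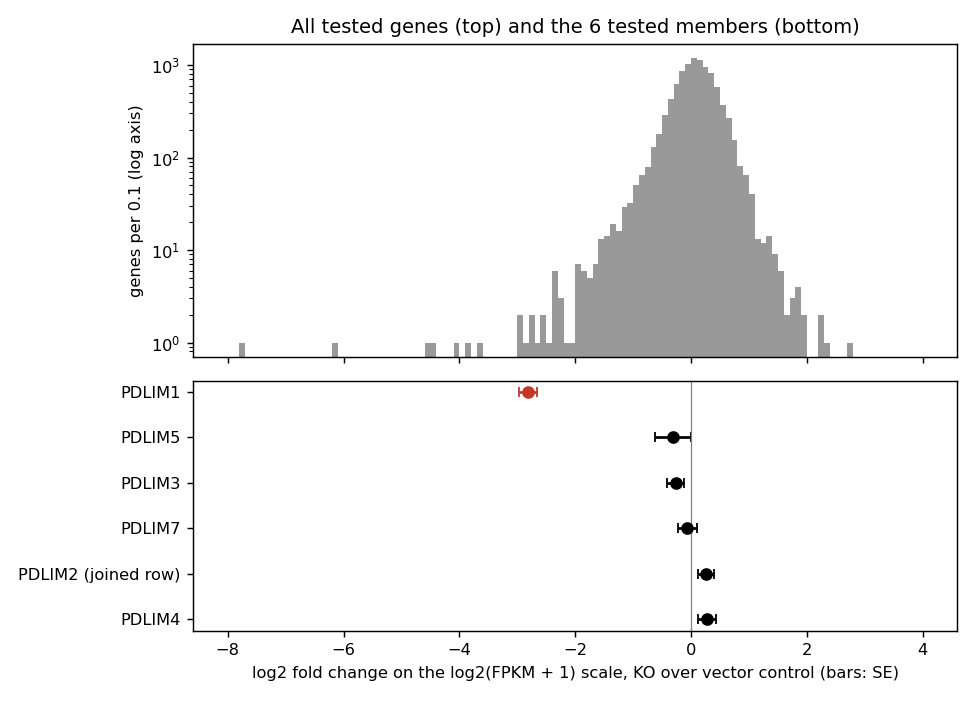
The top panel counts all 9624 tested genes by log2 fold change, KO over vector control, on a log count axis. The bottom panel gives the 6 tested members with SE bars. PDLIM1 lies at -2.82, and the other 5 between -0.31 and 0.27, where most genes lie.

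The family as a whole was dominated by a different gene in each group. The 7 rows summed to 16.4 ± 1.69 FPKM in KO libraries and 37.4 ± 2.76 FPKM in vector controls (SD, n = 3 each). Without PDLIM1 the sum was 14.0 ± 1.49 FPKM in KO libraries and 14.6 ± 2.24 FPKM in vector controls. The difference between those 2 means was smaller than either SD. PDLIM1 made up 12.5% to 16.4% of the family sum in KO libraries and 56.8% to 64.2% in vector controls. PDLIM7 made up 35.3% to 46.2% in KO libraries and 16.9% to 20.9% in vector controls, a share that moves with PDLIM1 because the shares add to the whole.

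**Figure D3:**
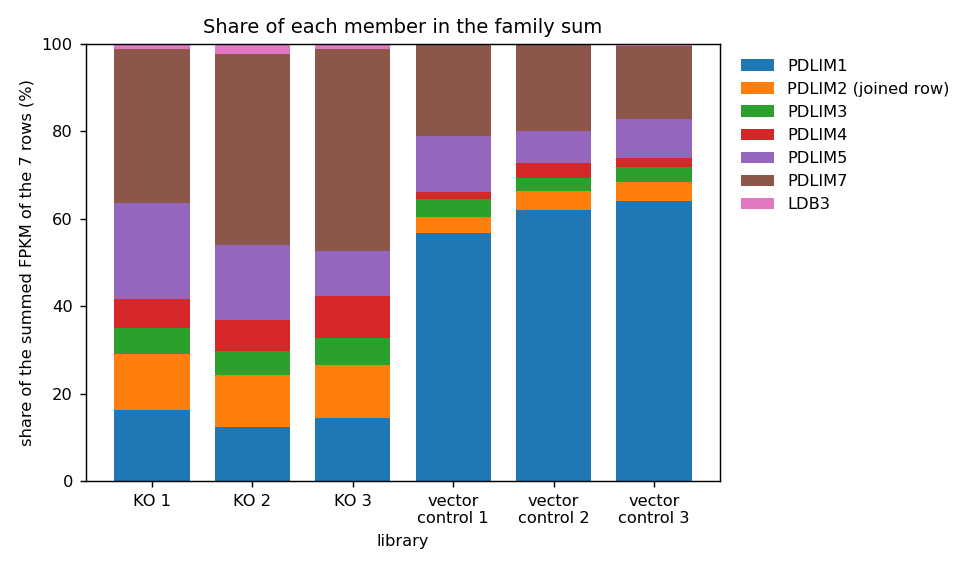
Share of each member in the summed FPKM of the 7 rows, by library, KO on the left. PDLIM1 fills 12.5% to 16.4% of the KO bars and 56.8% to 64.2% of the vector control bars, and PDLIM7 is the largest share in each KO bar.

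In KO libraries the order of mean levels was PDLIM7 (6.79 FPKM), PDLIM5 (2.76), PDLIM1 (2.37), the joined PDLIM2 row (1.99), PDLIM4 (1.25), PDLIM3 (0.973) and LDB3 (0.247). The ranges of PDLIM5 and PDLIM1 overlapped, as did those of PDLIM1 and the joined row, so these neighbours were not separated beyond their spread. In vector controls PDLIM1 came first (22.7 FPKM), followed by PDLIM7 (7.17), PDLIM5 (3.61), the joined row (1.49), PDLIM3 (1.38), PDLIM4 (0.877) and LDB3 (0.0867). There the joined row, PDLIM3 and PDLIM4 overlapped each with the next. The ratio of PDLIM1 to PDLIM7 was 0.286 to 0.464 in KO libraries and 2.72 to 3.80 in vector controls.

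Over the 6 libraries, the 5 tested rows whose log2(FPKM + 1) pattern was most like that of PDLIM1 were SCG2, FBXO33, CLDN11;AC026316, MMP3;MMP10 and CAMK1G, with Pearson r between 0.997 and 0.999. The correlation with PDLIM1 is over libraries of which 3 are KO, so any gene with a clean difference between the groups scores high. SCG2, a granin gene, stood at 0.49, 0 and 0.14 FPKM in KO 1 to 3, against 18.97, 17.54 and 20.24 FPKM in vector control 1 to 3. FBXO33, an F-box gene, stood at 4.46, 3.97 and 3.76 FPKM in KO libraries, against 9.57, 9.39 and 9.59 FPKM in vector controls. The row with CLDN11, a tight junction gene, averaged 7.03 ± 0.240 FPKM in KO libraries and 27.7 ± 0.747 FPKM in vector controls (SD, n = 3 each). All 5 had, like PDLIM1, a narrow spread in the controls, which follows from choosing them by this correlation.

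Neighbours of PDLIM1 on chromosome 10 were read in the order of RefSeq on GRCh38, among the 5 protein-coding genes on each side. ALDH18A1, a proline synthesis gene, averaged 35.7 ± 3.48 FPKM in KO libraries and 41.3 ± 1.21 FPKM in vector controls (SD, n = 3 each). The KO libraries were lower without overlap, as in 8.35% of tested genes, and ALDH18A1 did not pass (limma adjusted p = 0.475). TCTN3 averaged 9.69 ± 1.19 FPKM in KO libraries and 10.5 ± 0.272 FPKM in vector controls (SD, n = 3 each). Its groups overlapped, and it did not pass (limma adjusted p = 0.737). On the other side, CYP2C8 was listed at 0 in all libraries and ACSM6 reached 0.06 FPKM at most.

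Of the α-actinin genes that the family docks on, both nonmuscle members were expressed. ACTN1, a nonmuscle α-actinin gene, stood at 21.6, 22.55 and 23.23 FPKM in KO 1 to 3, against 26.54, 22.78 and 22.95 FPKM in vector control 1 to 3. The log2 fold change was -0.09 (SE 0.14, adjusted p = 0.766). It was 0.00107 after quantile normalization. ACTN4, the other nonmuscle α-actinin gene, stood at 22.75, 29.51 and 27.86 FPKM in KO libraries, against 39.48, 35.76 and 41.46 FPKM in vector controls. The KO libraries were lower without overlap, and ACTN4 did not pass (log2 fold change -0.53, SE 0.16, adjusted p = 0.169). It was called with robust eBayes and array weights, a fit that called 4020 genes (adjusted p = 0.0167). The muscle α-actinin gene ACTN2 was listed at 0 in all libraries. Of 11 tested α-actinin and actin crosslinker genes, 0 rose, 0 fell and 11 did not pass with limma, 6 of them at an unadjusted p below 0.05 (17.5% of all genes tested), and the median log2 fold change was -0.09. The median of all genes tested was 0.08.

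Of 26 tested LIM proteins of the actin cytoskeleton outside the family, 1 rose, 0 fell and 25 did not pass, and the median log2 fold change was 0.02. An unadjusted limma p below 0.05 was found for 4 of the 26, or 15.4%, against 17.5% of all genes tested. PRICKLE1, a LIM protein of planar cell polarity, rose to 3.04, 3.35 and 3.39 FPKM in KO 1 to 3, against 1.52, 1.22 and 1.09 FPKM in vector control 1 to 3. The groups did not overlap, and the log2 fold change was 0.91 (SE 0.14, adjusted p = 0.0343, where 0.509% of all tested genes were called higher). The call was lost without KO 1 (adjusted p = 0.0614), KO 2 (0.156), KO 3 (0.165), vector control 2 (0.181) or vector control 3 (0.177), and after quantile normalization (0.0640). LIMA1, an actin-stabilizing LIM protein named after its values were seen, stood at 33.21, 15.24 and 14.11 FPKM in KO libraries, against 40.83, 42.38 and 51.51 FPKM in vector controls (adjusted p = 0.147). KO 1 lay nearer to the controls than the other KO libraries, and without KO 1 the gene was called (log2 fold change -1.54, adjusted p = 0.0211). Robust eBayes with array weights also called LIMA1 (adjusted p = 0.00196), a fit that called 4020 genes. With any other single library left out, limma did not call LIMA1. The adjusted p then ran from 0.0826 without vector control 1 to 0.417 without vector control 3.

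Focal adhesion genes gave 0 limma calls among 23 tested, 5 of them at an unadjusted p below 0.05 (17.5% of all genes tested), with a median log2 fold change of -0.11. Their lowest fold change, named after its value was seen, belonged to ITGA5, the α chain of the fibronectin receptor. ITGA5 stood at 4.38, 3.47 and 3.72 FPKM in KO 1 to 3, against 7.54, 18.11 and 17.25 FPKM in vector control 1 to 3. Vector control 1 was well below the other controls but above each KO library. The log2 fold change was -1.57 (SE 0.32, adjusted p = 0.0706), and without vector control 1 it was called (-1.95, adjusted p = 0.00327). The fit without vector control 1 called 1329 genes over all. Robust eBayes with array weights also called ITGA5 (adjusted p = 0.000313), a fit that called 4020 genes. With any other single library left out, limma did not call ITGA5. The adjusted p then ran from 0.130 without KO 1 to 0.277 without KO 2. Of 17 tested genes of SRF, its MRTF coactivators and their targets, 0 were called by limma. An unadjusted p below 0.05 was found for 3 of the 17 (17.5% of all genes tested), and the list median log2 fold change was -0.02.

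Reported signalling partners of the family were mostly below the filter, and PTPN13, STAT4, TBX5 and GRIA1 were listed at 0 in all libraries. Of the 5 tested, 0 were called by limma and 2 had an unadjusted p below 0.05 (17.5% of all genes tested). The median log2 fold change was 0.41. RELA, the p65 subunit that PDLIM1 and PDLIM2 are reported to restrain in mouse cells, stood at 5.95, 4 and 3.16 FPKM in KO 1 to 3, against 5.35, 6.86 and 6.39 FPKM in vector control 1 to 3 (log2 fold change -0.45, SE 0.22, adjusted p = 0.340). The groups overlapped through KO 1, and robust eBayes with array weights called RELA (adjusted p = 0.00810), a fit that called 4020 of 9624 genes. ID2, the PDLIM5 partner, was named after its values were seen. It stood at 38.92, 68.69 and 72.59 FPKM in KO 1 to 3, against 19.83, 23.02 and 24.76 FPKM in vector control 1 to 3. The KO libraries were higher without overlap, and the gene lay just outside the threshold (log2 fold change 1.33, SE 0.25, adjusted p = 0.0609). ID2 was called without KO 1 (adjusted p = 0.0177), without vector control 1 (0.0434), after quantile normalization (0.0478) and with robust eBayes and array weights (0.000972). Over all tested genes these fits called 121, 1329, 130 and 4020, in that order. The adjusted p of ID2 was 0.257 without KO 2 and 0.232 without KO 3, the highest of the 16 other fits being 0.257.

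Over the 5 lists together, 82 of 121 genes were tested and 1 was called, or 1.22% against 1.35% of all genes tested. Unadjusted limma p lay below 0.05 for 20 of the 82, or 24.4%, against 17.5% of all genes tested. In 23 of the 82, or 28.0%, the groups did not overlap, 12 lower and 11 higher in KO libraries, against 23.8% of all genes tested. The count of calls was 14 without vector control 1 and 2 without KO 1, and 0 without KO 2, KO 3 or vector control 3. Over all 9624 tested genes the same fits called 1329, 121, 29, 25 and 39, in that order.

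**Figure D4:**
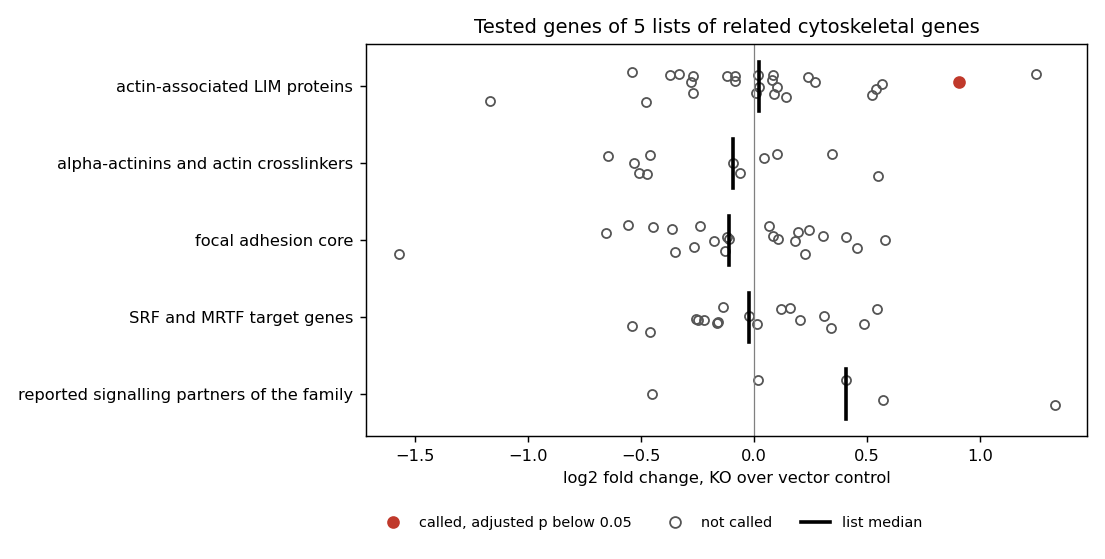
Log2 fold change, KO over vector control, of the tested genes in 5 lists related to the family. Filled points are called, open points are not, and black bars are list medians. PRICKLE1 is the single filled point, at 0.91, and the medians run from -0.11 to 0.41.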

How the data were processed

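Reads were handled with cutadapt, FastQC and HISAT2 on build hg19, per the submitters' processing notes. The table of FPKM values, 1 column per library with 2 decimals, was deposited by the authors. The sources used here do not give the tool that computed FPKM, its annotation or its use of strand. No whole-read steps were found among low values of short single-transcript genes (best concentration 0.412, where exact multiples give 1), so depth is unknown. How far read counts limit the precision, beside the number of libraries, cannot be told.

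Groups came from titles and genotype labels. R 4.3.3 with limma 3.58.1 fitted log2(FPKM + 1), KO minus vector control, with lmFit and trended eBayes, two-sided, on genes reaching 1 FPKM in 3 or more libraries, and p-values were Benjamini-Hochberg adjusted over all 9624 genes tested. A joined row was kept as 1 unit. List genes found only in joined rows were not tested. On data simulated for KO against vector control over 9624 genes, the fit was tested before use.

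The members and lists were chosen with earlier results of these data known. The genes named were all members, up to 3 called genes per direction in each list, ACTN1, ACTN4, RELA, the 5 rows most like PDLIM1, its 5 coding neighbours on either side and the cell type markers. A few genes that this rule takes are not reported here. Exceptions are marked as named after their values were seen. Annotation and gene order came from GENCODE 29 and RefSeq on GRCh38, with the promoter sequences from RefSeq GRCh38.p14, a build other than the one of the values. Alternatives were other pseudocounts, filters, scalings, variance models, thresholds, a replicate block and each library left out.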

Additional observations from a re-analysis of the deposited data

How the results depend on the processing

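PDLIM1 stayed lower in KO libraries under each of the 16 other fits. The gene was chosen for this difference and its groups lay far apart, so the sign was set beforehand and adds no support. The PDLIM1 log2 fold change was -3.22, -3.02 and -1.91 with pseudocounts of 0.1, 0.5 and 5, by their construction. It was -2.92 to -2.76 with 1 library left out. PDLIM1 is given without a test here too, and the other members were not called in any fit that tested them. PDLIM7 turned to 0.0533 with robust eBayes and array weights and ran from -0.136 to 0.0325 with 1 library left out, turning to 0.0325 without vector control 1, and ACTN1 to 0.00107 after quantile normalization, each far from the threshold. The cause was not tested. Genes called numbered 241 without a filter, 59 with a filter at 5 FPKM (fewer genes tested), 4020 with robust eBayes and array weights, 31 at an adjusted p below 0.01, 274 below 0.1 and 25 to 1329 with 1 library left out. List genes called numbered 0 with the 5 FPKM filter, 31 with robust eBayes and array weights, 0 below 0.01, 3 below 0.1 and 0 to 14 with 1 library left out.

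Same-numbered libraries deviated in opposite directions from their group means (r = -0.374, -0.153 and -0.264 for numbers 1, 2 and 3). The numbers were therefore not used as pairs in the main fit. Some libraries of different number deviated together: KO 1 with vector control 2 and 3 (r = 0.306 and 0.301), and KO 2 and 3 with vector control 1 (r = 0.183 and 0.324). KO 2 with vector control 3 and KO 3 with vector control 2 did not (r = -0.145 and -0.263). The cause of this pattern was not tested. With 3 libraries per group, these values cannot exclude a shared culture or preparation. With the replicate number as a block, 7 genes were called over all genes and 0 list genes, the PDLIM1 log2 fold change was -2.82, and PRICKLE1 lost its call (adjusted p = 0.224).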

Other observations

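Of 7 focal adhesion genes below the filter, 4, named after their values were seen, had groups that did not overlap. Among tested genes 23.8% had no overlap, but these 7 were not among the tested genes. The share among all genes below the filter was not computed, so 4 of 7 cannot be read as an excess. The adhesion adaptor gene TNS4 stood at 0.05, 0.08 and 0.1 FPKM in KO 1 to 3, against 0.53, 0.66 and 0.41 FPKM in vector control 1 to 3. The collagen receptor gene ITGA2 stood at 0.08, 0 and 0.05 FPKM in KO libraries, against 0.85, 0.47 and 0.4 FPKM in vector controls. Both were lower in KO libraries. TLN2, the second talin gene, stood at 0.49, 0.76 and 0.78 FPKM in KO libraries, against 0.34, 0.31 and 0.28 FPKM in vector controls. The exchange factor gene ARHGEF6 stood at 0.4, 0.5 and 0.43 FPKM in KO libraries, against 0.14, 0.09 and 0.11 FPKM in vector controls. Both were higher in KO libraries. These 4 genes were not tested, and at such levels a few reads can move a value.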
